A study of Mus musculus with 18 samples.

Results

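Unstimulated mouse cortical cultures at 0 h were represented by 6 of the 18 arrays of the series, chosen by their titles as the samples with 0 h of potassium chloride. Of these, 3 were hybridised to one Affymetrix array type, called set A here, and 3 to a second type that carries other probe sets, called set B. The sample labels give the cortex donors as mice of postnatal day 0 and also as embryonic, a conflict that could not be settled, and the neurons spent 7 days in vitro. The labels state no strain, sex or genotype, and no inhibitor of glial growth. The KCl dose of the stimulated arrays is recorded as 55 mM on the samples but 50 mM for the series, and the cultures described here had 0 h of it. The series text counts 3 independent experiments, so n = 3 for each probe set. The p-values below measure the spread between these arrays.

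Dissociated cortical cultures hold glutamatergic pyramidal neurons, GABAergic interneurons and the glia that survive or divide in the dish. Within about a week such neurons extend axons and dendrites and assemble their synapses. Their receptors and channels set how the membrane responds when it is later depolarized: L-type calcium channels open, calcium enters, and kinases carry the signal to the nucleus. The resting arrays give the levels from which that response starts.

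The deposited values were linear signals scaled to a trimmed mean near 500 on each array. Median signals were 182, 163 and 195 on set A and 182, 229 and 240.1 on set B. A probe set counted as above background when its log2 signal exceeded the array's own control level in a limma fit at an adjusted p under 0.05. The control level was the 95th percentile of the Bacillus control probe sets, which target bacterial transcripts, and came to 65.6, 65.8 and 72.3 on the 3 arrays of set A and to 346, 265 and 334 on set B. A second level came from the olfactory, vomeronasal and taste receptor probe sets, whose genes serve chemical sensing outside the cortex, and is called the chemosensory level. It lay at 189, 171 and 179 on set A and at 305, 499 and 482 on set B, above the control level on every array but array 1 of set B. A gene is said to exceed it only where it passed the same limma test against it, so a gene that did not pass can still have single values over it. Of 71 such receptor probe sets on set A, 15 exceeded the control level, against 0 of 15 on set B, so signals between the 2 levels of set A overlap those of such receptors.

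On set A, 13735 of 22626 probe sets (60.7%) were above background. On set B the count was 5690 of 22511 (25.3%). With 1 probe set per gene, 10699 of 18193 named genes (58.8%) were above the control level, made up of 8361 of the 12393 genes that set A measures (67.5%) and 2338 of the 5800 taken from set B (40.3%). Above the chemosensory level stood 7894 genes (43.4%), which is 48.9% of the genes measured on set A and 31.6% of those measured on set B. Signals of different probe sets depend on probe affinity, so ranks below are ranks of signal and not of transcript number, and the sets were not compared in level. Of the 4032 genes not above background on set A, 1044 also had a set B probe set, and 337 of these had one above background there. Counting any probe set of a gene, 11110 genes (61.1%) passed. Of the 8361 genes above background on set A, 2763 also had a set B probe set, and 1203 of these had one above background there. A gene was counted by its set A probe set where it had one. A set B result is given beside it for some of the genes whose calls differ, not for all.

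The arrays of set A resembled each other closely. Over the probe sets above background, the pairs correlated at r = 0.966, 0.966 and 0.958 on the log2 scale, a description across probe sets that share a chip and a scale. The median SD over the 3 arrays was 0.21 log2 units. On set B, array 1 stood apart: it alone held values below 0 (27.6% of its probe sets), and it correlated with arrays 2 and 3 at 0.894 and 0.882, against 0.942 between those 2. The median SD on set B was 0.29, and 0.17 without array 1. The ratio of 5′ to 3′ probe sets of beta-actin, a measure of RNA and cRNA length, was 0.347, 0.298 and 0.529 on set A arrays 1, 2 and 3, highest on array 3 and lowest on array 2.

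The brightest signals of the resting cultures came from genes of the growing neuronal cytoskeleton, from translation genes and from a small group of membrane and signalling proteins. The alpha-tubulin gene Tuba1a gave 52729.5, 54597 and 43341 on the 3 arrays of set A, on a probe set of the cross-hybridising _x_at type. The gamma-actin gene Actg1 gave 38140.1, 38232 and 34056. Nnat, an imprinted gene encoding neuronatin, a small membrane protein of developing brain, gave 37658, 36485 and 36207. These 3 named genes had the highest mean signals of set A, with SDs over the arrays of 0.18, 0.1 and 0.03 log2 units.

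The next places on set A went to the actin-binding thymosins Tmsb10 and Tmsb4x, the microtubule regulator Stmn1, the elongation factor Eef1a1, the beta-tubulin Tubb5 and the ribosomal protein genes Rps29 and Rpl41, both on _x_at probe sets. Hmgcs1, which makes the substrate of the committed step of cholesterol synthesis, stood among them with 25826, 31316 and 22183. Stmn2, a growth-cone regulator of microtubules restricted to neurons, gave 23421, 21651 and 24718. Enc1, an actin-associated protein of cortical neurons, Basp1, a growth-cone membrane protein, and Gpm6a, a neuronal glycoprotein that promotes filopodia, also belonged to the 20 named genes of highest mean. The mitochondrial transcript ND5, a subunit of complex I, gave 19155, 17274 and 28786, and array 3 was the high one.

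On set B, the microtubule-associated protein tau gene Mapt led the named genes with 99809.8, 70969.6 and 68962. Dpysl2, a collapsin response mediator that binds tubulin, gave 76731, 73162 and 49219. Map2, the marker of dendritic microtubules, gave 46297, 33241 and 29412 there. Array 1 was highest for all 3 of these genes, as for all 20 of the brightest named genes of set B. The others included Map1lc3a of autophagosome membranes, the septin Septin3, the calcineurin subunit Ppp3cb, the G protein subunit Gng2, the adhesion molecule Chl1 and the axonal motor Kif5c.

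All 31 measured members of a list of neuronal microtubule and actin genes were above background, beside 58.8% of all named genes. Their median percentile was 99.4 on set A, against 57.0 over all named genes of set A. The list was written with earlier results of these data known, so its high position is a description. The 24 pan-neuronal genes were likewise all above background, with a median percentile of 94.3. Of them 21 exceeded the chemosensory level, beside 43.4% of all named genes. Neuron-specific tubulin Tubb3 gave 13719, 14219 and 11392. The migration and neurite protein Dcx gave 8687, 8011 and 8481, and the growth-cone protein Gap43 gave 8786, 8102 and 9725. All 3 arrays carried them at a similar height. The heavy neurofilament Nefh (128, 119 and 185), the nuclear splicing factor Rbfox3 (NeuN; 205, 210.2 and 265) and the vesicle calcium sensor Syt1 (360.4, 116 and 485) were the 3 that passed against the control level alone.

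The promoters of genes detected at rest differed in base composition from those of genes that were not. RefSeq windows of 300 bases, from 250 before to 50 after the gene start (GRCm38.p6), were matched by symbol to 9887 genes of set A, taking the window listed for each gene at its earliest line. In the 6810 genes above background the median ratio of observed to expected CpG was 0.78 and the median GC content 61.0%, against 0.38 and 54.3% in the 3077 genes not above it. The letters GGGCGG, the core of the GC box bound by Sp1, stood in 65.8% of promoters of genes above background and in 39.0% of the others. The TATA-box letters TATAAA ran the other way, with 7.2% and 16.6%. The full cyclic AMP response element TGACGTCA, the palindrome bound by CREB, stood in 3.27% and 1.59%. All were searched on both strands, and none of the 3 contains another; matches of different motifs were not checked for overlap. Over all 27025 promoters of the table they occurred in 35.9%, 14.2% and 1.88%.

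Across the range of signal the change was not even. The median CpG ratio was 0.34 in genes up to the 25th percentile of signal, 0.78 between the 50th and the 75th, and 0.85 in the 81 genes above the 99th. TATAAA was rarest, at 5.73%, between the 75th and 90th percentiles and stood at 13.6% (11 genes) above the 99th. TGACGTCA occurred in 6 of those 81 brightest genes (7.41%). Among the genes in the brightest 5% whose promoter held it were Eef2, Tubb2a, Klc1, Ldha, Cycs, Syn1 and Sst. A match is a description of letters, not of a bound site.

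**Figure D1:**
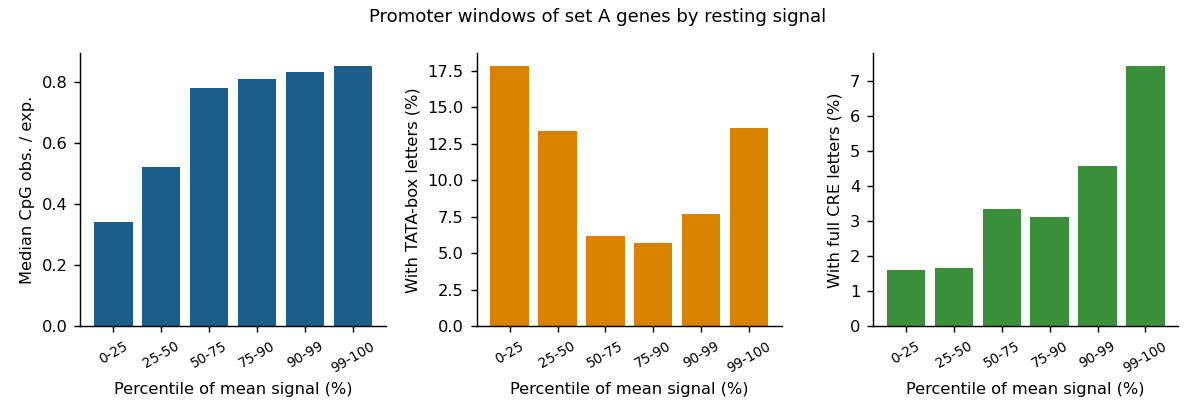
Promoter windows of set A genes grouped by the percentile of their resting mean signal (horizontal axes): median CpG observed over expected (left), share of promoters with the TATA-box letters (middle) and with the full cyclic AMP response element (right), bars from 0. The CpG ratio climbed from 0.34 in the lowest group to 0.85 in the highest, and the TATA-box share was lowest, 5.73%, between the 75th and 90th percentiles.

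A set of 3 windows show these classes, each printed in the direction of transcription with the motif in capitals. The CpG-rich promoter of Actg1 (chr11:120348446-120348745, minus strand) holds GGGCGG or its complement at 6 places, some overlapping, and has 77.3% GC. The promoter of Sst, the somatostatin gene and the peptide gene of highest signal on set A after the processing enzyme Cpe, lies at chr16:23890795-23891094 (minus strand) and carries TGACGTCA at position -48 from the gene start. The promoter of Fabp1, a liver fatty acid binding protein not above background here (74.3, 12.5 and 11.1), lies at chr6:71199629-71199928 (plus strand), has TATAAA at -30 and a CpG ratio of 0.2.
Actg1: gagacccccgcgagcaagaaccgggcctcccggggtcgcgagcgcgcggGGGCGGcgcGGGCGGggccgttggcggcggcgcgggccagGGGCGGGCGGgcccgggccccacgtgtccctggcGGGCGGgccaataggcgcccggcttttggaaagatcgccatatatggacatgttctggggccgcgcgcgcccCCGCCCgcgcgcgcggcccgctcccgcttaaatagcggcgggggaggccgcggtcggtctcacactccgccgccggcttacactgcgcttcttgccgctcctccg
Sst: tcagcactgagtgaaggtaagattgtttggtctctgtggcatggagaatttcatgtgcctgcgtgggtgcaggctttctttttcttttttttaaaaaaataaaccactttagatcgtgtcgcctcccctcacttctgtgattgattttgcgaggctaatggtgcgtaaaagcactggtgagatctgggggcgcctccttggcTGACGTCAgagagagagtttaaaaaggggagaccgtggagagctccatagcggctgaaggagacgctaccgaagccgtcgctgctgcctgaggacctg
Fabp1: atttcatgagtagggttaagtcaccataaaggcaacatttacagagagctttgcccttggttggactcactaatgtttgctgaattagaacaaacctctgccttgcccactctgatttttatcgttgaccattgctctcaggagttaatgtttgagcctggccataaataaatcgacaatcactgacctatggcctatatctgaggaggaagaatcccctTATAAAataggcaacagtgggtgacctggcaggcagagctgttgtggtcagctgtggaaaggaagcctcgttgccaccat

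The labels call the cultures cortical neurons, and markers of cortical excitatory neurons were present. Of 15 measured genes of forebrain and excitatory identity, 14 were above background and 13 exceeded the chemosensory level, beside 58.8% and 43.4% of all named genes. Mef2c, a transcription factor of maturing cortical neurons, gave 11823, 10417 and 10475. Neurod6, a factor of postmitotic pyramidal neurons, gave 1369, 1725 and 1995. The zinc finger factor Zbtb18, the LIM factor Lhx2, the homeobox genes Emx1 and Emx2 (set B) and the deep-layer factor Tbr1 were also above background. Of the vesicular glutamate transporters, Slc17a7 (VGLUT1) gave 926, 1037 and 559.7 on set B and was above background (log2 over the control level 1.34 ± 0.24 SE, adjusted p = 3.31e-05). Slc17a6 (VGLUT2) gave 908, 461 and 744 on set A (3.05 ± 0.18 SE, adjusted p = 4.49e-07). The exception was the set A probe set of the kinase Camk2a, with 4.69, 3.2 and 6.16, which was not above background, while 3 of its 5 set B probe sets were, the brightest with 2862, 2650.2 and 1793.

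Of 21 layer-enriched genes 13 were above background (61.9%), near the 58.8% of all named genes and below the 67.5% of set A genes. The upper-layer factor Cux1 gave 2744, 2486 and 2243, and the neurotensin receptor Ntsr1, enriched in layer 6 neurons that project to the thalamus, gave 2103, 2102 and 1691. Cux2, Lmo4, Lpl, Mdga1 and Unc5d exceeded the chemosensory level as well. Fezf2, a factor that specifies subcortical projection neurons, gave 118, 90.6 and 92.3 and did not pass (adjusted p = 0.0771). Pou3f2, Pou3f3, Foxp2, Rorb, Sox5 and Rasgrf2 did not pass on set A and each had a set B probe set above background, so that 19 of 21 passed when any probe set of a gene was counted. Of 7 Cajal-Retzius markers, the secreted guidance protein Reln, the calcium buffer Calb2 and the p53 relative Trp73 were above background, and Lhx1, Lhx5, Ebf2 and, on set B, Ndnf (adjusted p = 0.0504) did not pass. The Trp73 call was lost without array 2 or without array 3.

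GABAergic neurons were represented by their enzymes, transporter and peptides. Gad1, which makes the bulk of cellular GABA, gave 2760.5, 2572 and 2997 (5.06 ± 0.1 SE log2 units over the control level, adjusted p = 2.22e-09). Gad2, the synaptic GABA-making enzyme, gave 180.2, 178 and 236 on set A (adjusted p = 0.000126) and 1887, 1998 and 1704 on its set B probe set, which passed as well. Slc32a1, which loads GABA into vesicles, gave 731, 895 and 839. All 3 genes were above background on every array of set A. Of 29 interneuron genes 17 passed (58.6%), and 12 exceeded the chemosensory level, beside 43.4% of all named genes that exceeded it. The share that passed lay near the 58.8% of all named genes and below the 67.5% of set A genes. Most of those that passed were measured on set A.

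Of the interneuron peptides, Sst and Npy were bright and uneven between arrays. Sst gave 5437, 10589 and 6352, and Npy, expressed in many of the same cells, gave 3537, 6126 and 4397. Lhx6, the factor that specifies interneurons of the medial ganglionic eminence, gave 509, 909 and 572, and Tac1 gave 329, 587 and 312. Array 2 was the highest for these 4 genes, though not for the list: of its 16 members above background on set A, 6 were highest on array 2 and 8 on array 3. Calb1 and Cck were above background too, and Vip, the peptide of a late-maturing class, gave 127, 98.4 and 176, above the control level, a call lost without array 3. Pvalb, the calcium buffer of fast-spiking cells that appears late in development, gave 100.1, 60.8 and 65.2 and did not pass (adjusted p = 0.521). Erbb4, Npas1 and Prox1 did not pass either, whereas Sox6, Maf, Adarb2 and Nr2f2 passed on set B probe sets alone, so that 21 of 29 passed on some probe set.

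Glial genes stood high in the same RNA. Of 21 astrocyte markers 19 were above background, 17 over the chemosensory level, beside 58.8% and 43.4% of all named genes. Their median percentile was 89.2, against 57.0 over all named genes of set A. Fabp7, a lipid carrier of radial glia and young astrocytes, gave 14765, 15432 and 20018. The lipoprotein gene Apoe gave 12524, 12801 and 12304, and Gfap, the intermediate filament of astrocytes, gave 4940.2, 6499 and 6834 (6.17 ± 0.13 SE, adjusted p = 2.22e-09). All 3 Gfap probe sets, 2 on set A and 1 on set B, were above background. The glutamate transporter Slc1a3 (GLAST), the water channel Aqp4, the glutamine synthetase Glul and Aldh1l1 were above both levels. Slc1a2 (GLT-1), the transporter of mature astrocytes, gave 21, 10.6 and 11.3 on set A and 4128, 3651 and 4142 on 1 of its 4 set B probe sets.

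Progenitor and cell cycle genes were also measured above background. Of 18 markers of radial glia and progenitors 14 passed, among them Vim, Nes, Sox2, Hopx and Notch1, and Eomes, Neurog1 and Neurog2 of neurogenic progenitors did not. Of 21 proliferation genes 18 passed, a share of 85.7% beside 67.5% over the genes of set A. The DNA clamp Pcna gave 2924, 2479.6 and 3043, the topoisomerase Top2a gave 707, 574 and 556, and Mki67 gave 528, 472 and 333. All 3 lay above the chemosensory level on each array. In bulk RNA the number of cells of a type and the RNA per cell cannot be told apart, here or in the comparisons that follow.

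Of 12 measured markers on the list of oligodendrocyte precursors 12 passed, beside 58.8% of all named genes. Olig1 gave 3837, 3307 and 3314, the growth factor receptor Pdgfra gave 625, 607 and 642, and Sox10 gave 488, 613 and 464. On set B, Bcas1, a marker of oligodendrocytes that are starting to myelinate, gave 11893, 9607 and 12209.6 on the 1 of its 3 probe sets that passed. Gpr17 of committed precursors gave 4018, 5029 and 6040 there. Of 11 genes of myelinating cells 7 passed, with Mbp, a main protein of myelin, at 1649, 1641 and 3661. Mog and Mobp, which mark the late myelin sheath, were at 3, 8.86 and 1.99 and at 6.76, 10.3 and 14.3.

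Of 20 microglia and macrophage genes 12 passed, with 3 over the chemosensory level: Laptm5, Lyz2 and Csf1r, the receptor that keeps microglia alive (334, 284 and 251). Itgam, Cx3cr1, C1qa and Ptprc did not pass. Endothelial genes passed in 5 of 14 cases, and Tie1, Vwf, Cldn5 and Emcn did not. Pericyte, fibroblast and meningeal genes passed in 10 of 22 cases, led by Sparc and Igfbp2, which glia also express, whereas Dcn, Lum, Tagln and Rgs5 did not pass. Blood and immune genes passed in 2 of 15 cases (1 without array 1 or without array 3) and choroid plexus and ependymal genes in 3 of 14, led by Clic6 on set B, with Ttr of the choroid plexus at 10.6, 13.9 and 15.4. The endothelial (35.7%), pericyte (45.5%), choroid plexus (21.4%) and blood (13.3%) shares lay below the 58.8% of all named genes. The microglia share, 12 of 20, lay near it and below the 67.5% of set A genes. The chemosensory level, exceeded by 3 of these 20 genes, was exceeded by 43.4% of all named genes.

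Genes best known from other brain regions or other organs, some of which cortex also expresses, passed in 43.9% and 27.0% of cases, against 58.8% of all named genes. Of 41 markers of other brain regions 18 passed, though 4 exceeded the chemosensory level, which 43.4% of all named genes exceeded. Oxt, the hypothalamic peptide oxytocin, gave 897, 1019.5 and 971, Cbln1, a synaptic organizer of cerebellar granule cells, gave 963, 720.1 and 844, the opioid peptide Penk gave 605, 181 and 598, and Hoxc6 of the spinal cord gave 259.9, 225 and 305. The patterning genes Otx2, Gbx2, En1 and Hoxa2 did not pass. Of 37 genes of other organs 10 passed and 3 exceeded the chemosensory level, the epidermal genes Krt1 (506, 549 and 393), Krt10 (493, 409.7 and 468) and Lor (263, 315 and 281).

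**Figure D2:**
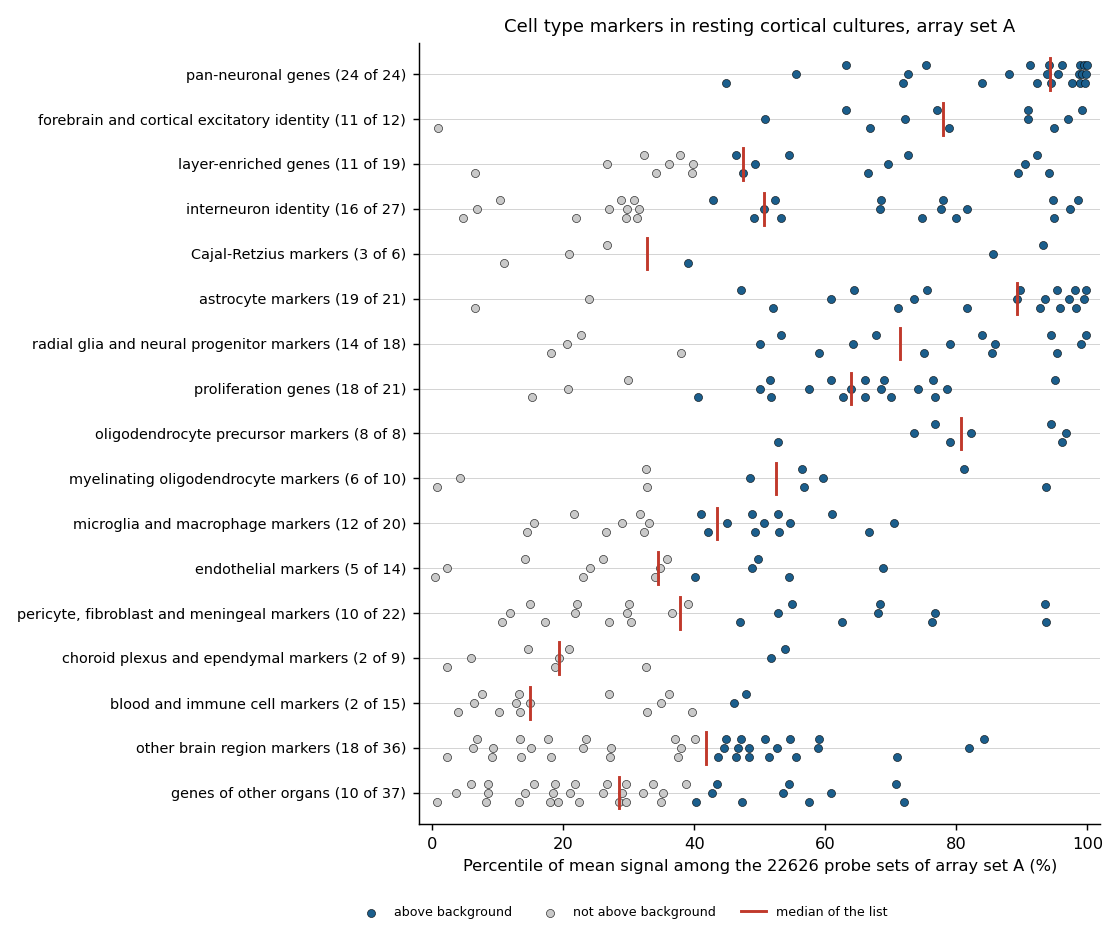
Each point is a gene of a cell type list on array set A, at the percentile of its mean signal over the 3 resting arrays (horizontal axis), blue where above background and grey where not, with the list median in red and the count above background beside each name. Pan-neuronal genes (24 of 24) and astrocyte markers (19 of 21) sat high, and blood genes (2 of 15) sat low.

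Members of some lists differed together between the 3 arrays of set A. Over all 8361 set A genes above background, 33.9%, 33.5% and 32.6% had their highest value on arrays 1, 2 and 3. Of the 6 myelin genes above background on set A, 5 were highest on array 3 and 5 were lowest on array 2, with median deviations from the mean of the 3 arrays of -0.08, -0.41 and 0.52 log2 units. Cnp gave 771, 535 and 1103, Mag gave 269.8, 166 and 378, and Ugt8a gave 141, 114 and 250.2, alongside Mbp above. Mal was the exception, with 268, 261 and 186, and Opalin on set B also ran the other way (966, 571 and 359). Microglia genes were never highest on array 2: of 12 above background, 5 were highest on array 1 and 7 on array 3, and 7 were lowest on array 2. Array 2 had the lowest 5′ to 3′ ratios of the set and array 3 the highest, and the part of RNA quality in these differences was not tested.

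Neurotrophins and growth factors showed another pattern, with 9 of 11 highest on array 1 and none on array 2. Excitatory postsynaptic scaffold genes were highest on array 2 in 8 of 9 cases, though by a median of 0.12 log2 units. Every list with 3 or more members above background on set A was looked at in this way, and only some are described. With 3 arrays there is no test of such a difference beyond the spread itself, and none was made.

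**Figure D3:**
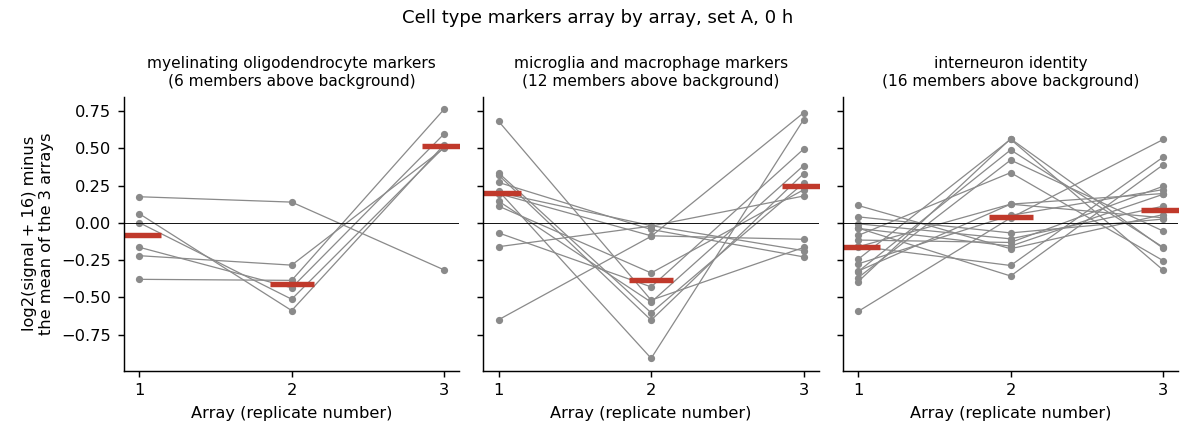
Deviation of each gene's log2(signal + 16) from its own mean over the 3 resting arrays of set A (vertical axis), by array number (horizontal axis), for members above background of the myelin, microglia and interneuron lists; grey lines are genes and red bars are medians. Myelin genes had medians of -0.08, -0.41 and 0.52, microglia genes of 0.2, -0.38 and 0.25, and interneuron genes of -0.16, 0.04 and 0.08.

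Glutamate receptors carry fast excitation. Of the 4 AMPA receptor subunits, Gria1 gave 1783, 1875 and 1815 (4.46 ± 0.09 SE over the control level, adjusted p = 2.22e-09) and Gria2, whose edited form makes the channel nearly impermeable to calcium, gave 1494, 1903 and 2292. Gria4 gave 134, 156 and 147, above the control level. Gria3 gave 109, 26.7 and 152 on set A and did not pass (adjusted p = 0.449), and its set B probe set passed with 912, 772 and 497. Of 11 auxiliary AMPA subunits 8 passed, beside 58.8% of all named genes. The brightest on set A was the export factor Cnih2 with 3964, 4733 and 3877. Stargazin (Cacng2) and its relatives Cacng3, Cacng4 and Cacng5 exceeded the chemosensory level, and Cacng8 did not pass (39.4, 24.1 and 53.6). Cacng7 did not pass on set A and passed on set B with 1383, 1403 and 1229.8.

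NMDA receptor subunits, which admit calcium when glutamate binds and the membrane is depolarized, were measured for 6 genes. Grin2b, the subunit that dominates in immature cortex, gave 164, 168 and 108 on set A (0.93 ± 0.24 SE, adjusted p = 0.00444), and its set B probe sets gave up to 1959, 1723 and 1428 and passed. Grin2a, which replaces it during maturation, gave 47.4, 82.7 and 48.5 and did not pass (adjusted p = 0.992). Grin2c gave 34.9, 24.9 and 32.5 and Grin3b 12.3, 17 and 17.5, neither above background, whereas Grin3a passed on set B with 1353, 1429 and 1033. Grin2d did not pass on set A (167, 33.5 and 146), with array 2 alone low, and passed on set B. Grin2b was thus above background on both sets.

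Kainate receptor genes passed in 3 of 7 cases, beside 58.8% of all named genes. These were the co-subunit Grik5 (1532, 2053 and 1183) and the auxiliary proteins Neto1 and, on set B, Neto2. Grik1 gave 102, 109 and 96.3 (adjusted p = 0.0586), and Grik2 and Grik3 passed on their set B probe sets alone. Metabotropic receptors passed in 4 of 6 cases, all on set B, where Grm5, which couples to calcium stores, gave 1605, 1152 and 1403, Grm7 of presynaptic terminals 1911, 1338 and 1304, and Grm4 1461, 1961 and 1734. Grm8 on set A did not pass. The delta receptor Grid1 gave 179, 345 and 186, above the control level.

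GABA-A receptors are pentamers that pass chloride. Of 15 measured subunits 9 were above background, and 3 exceeded the chemosensory level, beside 43.4% of all named genes that exceeded it. The share above background lay near the 58.8% of all named genes and below the 67.5% of set A genes. On set B, Gabra5, a subunit of extrasynaptic receptors, gave 3733, 3272 and 3130.2 and Gabra4 1435, 1250.2 and 955. On set A, Gabrb1 gave 449, 610.1 and 518, above both levels. Gabra2, a subunit of young synapses, gave 263, 154 and 283 and Gabrb2 gave 208, 175 and 228, both above the control level on set A without passing against the chemosensory one, and both had several set B probe sets above background. Gabra3, Gabre, Gabrp and Gabrg1 passed against the control level as well, and Gabrg1 was at 65.4 on array 2, against 211 and 228 on arrays 1 and 3. The delta subunit Gabrd, Gabrg3, the theta subunit Gabrq, the cerebellar subunit Gabra6 and the retinal subunits Gabrr1 and Gabrr2 did not pass. The metabotropic receptor gene Gabbr1 gave 3921, 3762 and 3015.

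The effect of GABA depends on the chloride gradient. The exporter Slc12a5 (KCC2), which lowers chloride in mature neurons, gave 3854, 2717 and 3033 (5.25 ± 0.13 SE, adjusted p = 2.86e-09). The importer Slc12a2 (NKCC1), which keeps chloride high in young neurons, gave 809, 723 and 691 (3.17 ± 0.11 SE, adjusted p = 1.98e-08). Both were above the chemosensory level on all 3 arrays, although only 1 of 2 probe sets of Slc12a5 and 1 of 3 of Slc12a2 passed, and their signals were not set against each other. The endosomal chloride exchangers Clcn3, Clcn4, Clcn5, Clcn6 and Clcn7 passed, and the muscle channel Clcn1 and Ano1 did not. Glycine receptors were represented by the fetal alpha subunit Glra2 on set B (1631, 1088 and 884) and the beta subunit Glrb (411, 344 and 464), while Glra1, Glra3 and Glra4 did not pass.

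Receptors for modulators were mostly not above background. Over all named genes 58.8% passed against the control level and 43.4% against the chemosensory level. Among those measured on set A the shares were 67.5% and 48.9%. Nicotinic subunits passed in 4 of 15 cases, none over the chemosensory level. Of these, Chrna4 gave 279, 170.4 and 245 and its partner Chrnb2 gave 252, 84 and 235. Without array 1 or without array 3 the nicotinic count was 2. Chrna7 did not pass on set A and passed on set B with 1201, 1131 and 1358. None of the 3 measured muscarinic receptors Chrm1, Chrm3 and Chrm4 passed on set A, and Chrm1 passed on set B with 5377, 2248 and 2549.9. Of 13 serotonin receptor genes 6 passed, and the inhibitory Htr1b (781, 359.9 and 855) and the ion channel Htr3a (439, 356 and 420.1) exceeded the chemosensory level. The dopamine receptors Drd2 and Drd4 passed against the control level and not against the chemosensory one, and Drd1 and Drd3 did not pass. Of 14 purine and cannabinoid receptors 4 passed, with P2rx4 over the chemosensory level and the cannabinoid receptor Cnr1 at 177, 137 and 425.

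Of 30 neuropeptide receptors 10 passed, among them Ntsr1, the nociceptin receptor Oprl1, the glial Ntsr2, the somatostatin receptor Sstr2 (361, 343 and 326) and the corticotropin-releasing hormone receptor Crhr1. Receptors for growth factors passed in 14 of 20 cases (70.0%), near the 67.5% of all set A genes, and in 6 with each gene's dimmest probe set. Ntrk2, the receptor of BDNF, gave 2999.8, 3255 and 2772, and its relative Ntrk3 gave 259, 217 and 302. Egfr gave 1227, 979.5 and 969. Ngfr, which binds all neurotrophins, gave 72.2, 37 and 29.8 and did not pass.

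**Figure D4:**
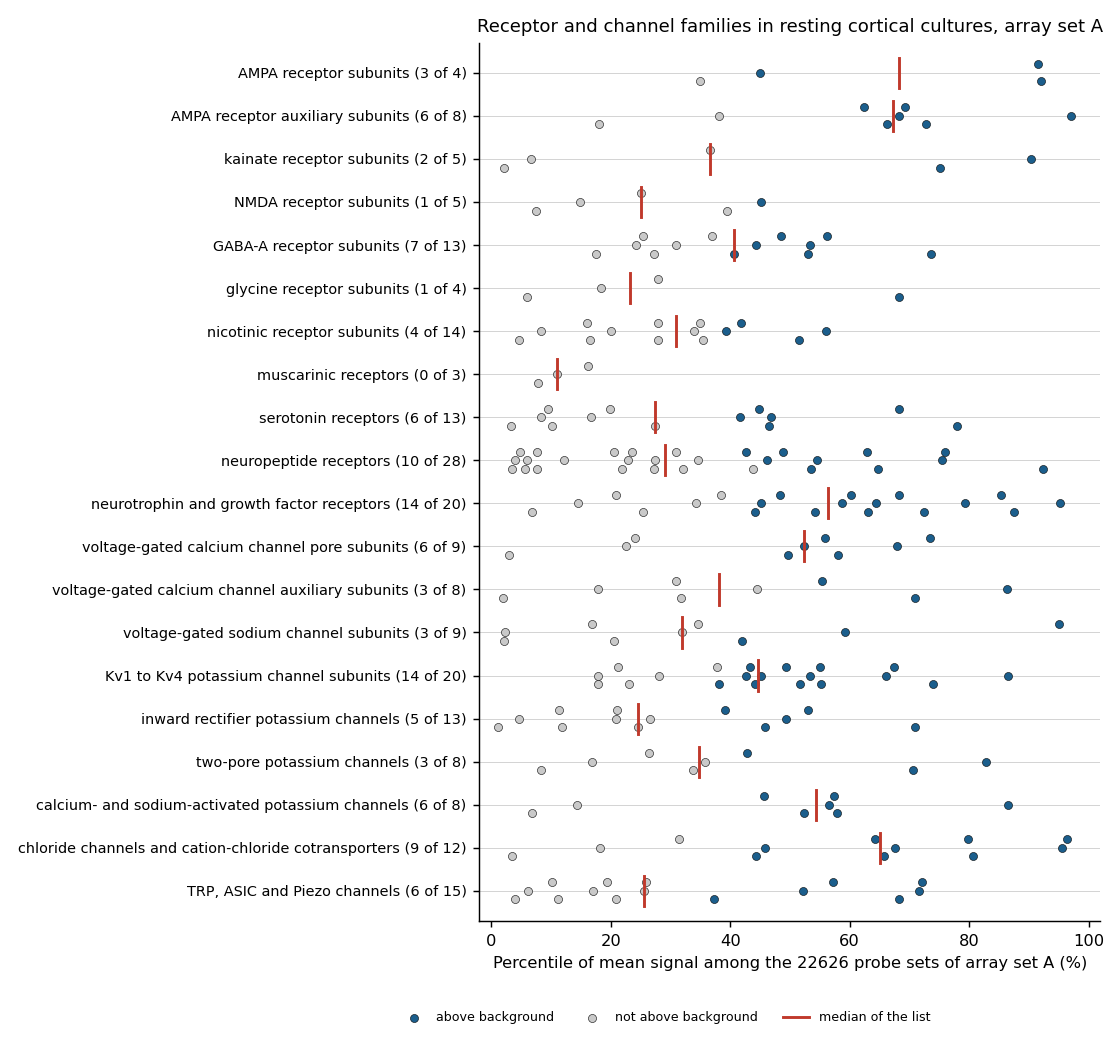
Each point is a receptor or channel gene of array set A, at the percentile of its mean signal over the 3 resting arrays (horizontal axis), blue where above background and grey where not, with the family median in red and counts beside each name. Chloride transport genes passed in 9 of 12 cases and growth factor receptors in 14 of 20, near the 67.5% of all set A genes. Muscarinic receptors (0 of 3) sat low.

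Voltage-gated calcium channels, the entry route that KCl opens, were detected for several families. Of the L-type pore subunits, Cacna1c gave 236, 290.2 and 231 (1.67 ± 0.17 SE, adjusted p = 1.79e-05), just over the chemosensory level, and 1645, 1166 and 1025 on set B. Cacna1d gave 169, 204 and 156 (1.19 ± 0.2 SE, adjusted p = 0.000467) and Cacna1f, best known from retina, gave 244, 189.5 and 255, both above the control level without passing against the chemosensory one, and the skeletal muscle Cacna1s gave 3.66, 11.4 and 9.69 and did not pass. The T-type subunits Cacna1h (507, 549 and 503) and Cacna1g (436, 454 and 309) exceeded both levels. The P/Q-type Cacna1a gave 251, 189 and 155. The N-type Cacna1b and the R-type Cacna1e did not pass on set A and passed on set B. Cacna1b gave 4582, 3125 and 3299 there on an _x_at probe set, and Cacna1e gave 2843, 2039.5 and 2032. Thus 8 of 9 pore subunits passed on some probe set.

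Of 9 auxiliary calcium channel subunits 3 passed, beside 58.8% of all named genes. These were Cacna2d3 (1171, 971 and 1239), Cacnb1 (505, 479.6 and 399) and Cacna2d1 (245, 191 and 235). Cacnb2 was at 3.39, 6.31 and 9.82. Cacnb4 did not pass on set A and passed on set B with 589, 863 and 649.9. Cacna2d2 gave 311 on array 1, against 71.1 and 47.4 on arrays 2 and 3. Cacng1 and Cacng6, subunits of muscle channels, did not pass.

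Sodium channel genes passed in 5 of 12 cases, beside 58.8% of all named genes. Scn3b, a beta subunit, gave 2719.9, 3179 and 2577, and Scn2b passed on set B. Of the pore genes, Scn8a gave 262, 279.9 and 256, above both levels, and Scn2a gave 94.2, 81.6 and 211, above the control level and lost without array 1 or without array 3. Scn3a, the embryonic pore, did not pass on set A (39.8, 42.1 and 26.7) and passed on set B (2041, 1728 and 1505), and Scn1a did not pass. The peripheral channels Scn10a and Scn7a were at 15.1 or less on every array. The leak channel Nalcn passed on set B with 3069.9, 1541 and 1470.3. The pacemaker subunits Hcn2 (435, 485 and 423) and Hcn3 (776, 603 and 493) exceeded both levels.

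Potassium channels set the resting potential and end the action potential. Of 22 Kv1 to Kv4 genes and their partners 16 passed, with 5 over the chemosensory level, beside 58.8% and 43.4% of all named genes. Kcnd2, which carries the A-type current of dendrites, gave 496, 431 and 675, and its partners Dpp6, Dpp10 (set B) and Kcnip1 also exceeded that level. Kcna1, Kcna2, Kcna4 and Kcna6 passed against the control level alone on set A. Kcna4 gave 188, 53.9 and 179.7, with array 2 under the control level. Kcnd3 did not pass on set A and gave 8278, 4157 and 4644 on set B.

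Of 18 KCNQ, KCNH and modifier genes 7 passed, beside 58.8% of all named genes. With Kcnq5 and Kcns2, which passed on set B alone, 9 passed on some probe set. Among them were Kcnq3 of the M current (1037, 2352 and 1926 on set B) and the silent subunits Kcnf1 and Kcnv1. Inward rectifiers passed in 5 of 15 cases, and Kcnj11 passed on set B alone with 9861, 5365 and 5058. The astrocytic Kcnj10 (545, 465 and 372) exceeded the chemosensory level, Kcnj3 and Kcnj6, which pair into channels gated by G proteins, passed against the control level alone, and the classical rectifier Kcnj2 gave 3.91, 4.84 and 6.41. Tandem-pore leak channels passed in 4 of 12 cases, and Kcnk2 (TREK-1) gave 754, 985 and 914 and Kcnk1 453, 543 and 363. Kcnk3 (TASK-1) did not pass. Kcnk10 did not pass on set A and passed on set B with 3108, 2337 and 2346. Of 10 calcium- and sodium-activated channel genes 7 passed, including the BK pore Kcnma1 (174, 131 and 288) and its neuronal partner Kcnmb4 (1194, 1152 and 1079.8). Kcnma1 passed against the control level alone, on 1 of its 2 set A probe sets and on 0 of its 3 set B probe sets.

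**Figure D5:**
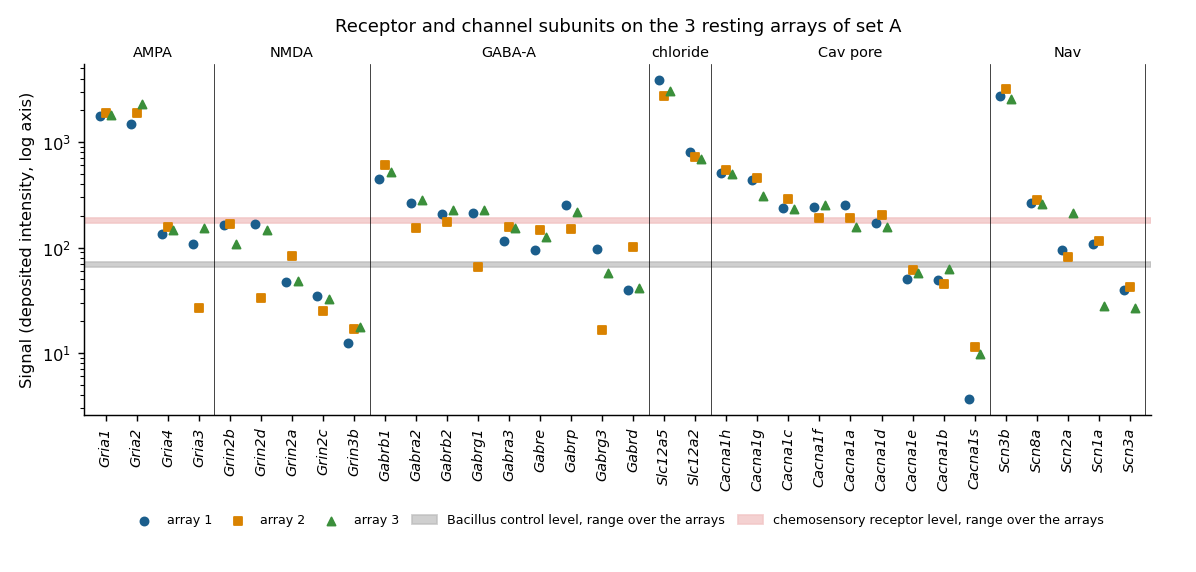
Signal of receptor and channel genes on each of the 3 resting arrays of set A (vertical log axis, deposited intensity), with bands for the range of the control level (65.6 to 72.3) and of the chemosensory level (171 to 189). Gria1, Gria2, Slc12a5 and Scn3b lay far above both bands on every array, and Grin2a, Cacna1b and Scn3a lay near or under the lower band.

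Genes that refill and release calcium stores passed in 16 of 19 cases, beside 58.8% of all named genes. The endoplasmic reticulum pump Atp2a2 gave 7698, 7453 and 5814, the plasma membrane pump Atp2b2 gave 2432, 2001 and 1530.4, and the ryanodine receptor Ryr2 gave 320, 338 and 291. The store sensor Stim1 passed against the control level and Stim2 passed on set B. Of 25 TRP, ASIC and Piezo genes 11 passed, led on set B by Asic1 (6208, 6581 and 4813), an acid-gated channel of central neurons. The cold receptor Trpm8 and Trpv4 did not pass. Gap junction and pannexin genes passed in 4 of 13 cases. Panx1 (1450.4, 1524 and 1262) and the astrocyte connexin gene Gja1 (388, 414 and 589.7) were above both levels, and the neuronal connexin Gjd2 passed on set B alone.

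Of 26 presynaptic genes 23 were above background, beside 58.8% of all named genes and 67.5% of those measured on set A. Their median percentile was 88.4, against 57.0 over all named genes of set A. The fusion clamp Cplx1 gave 7359, 9156 and 4489, the vesicle GTPase Rab3a 5393, 6242 and 4647, and synaptophysin (Syp) 4908, 4271 and 3476. Synapsin Syn1, Vamp2 and Nsf had similar percentiles between 96.4 and 96.8. Of 18 excitatory scaffold genes 11 passed, near the 58.8% of all named genes and below the 67.5% of set A genes. Dlg4 (PSD-95) gave 1759, 2011 and 1689.9 and Shank3 969, 1006 and 804. Homer1 did not pass on its set A probe sets and passed on all 3 of set B. Dlg2 did not pass on set A and gave 12584, 9444 and 9010.2 on set B. With any probe set counted, 15 of the 18 scaffold genes passed. Of 13 organizers of inhibitory synapses 11 passed, among them neuroligin Nlgn2 (3379, 3922 and 3310.4), the scaffold gephyrin (Gphn, 808, 757 and 925), and on set B Lhfpl4, which links receptors to neuroligin.

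The machinery that carries calcium signals to the nucleus was present at rest. Of 29 measured genes 25 passed, 20 over the chemosensory level, beside 58.8% and 43.4% of all named genes. The calcineurin catalytic subunit Ppp3ca gave 2824, 2864 and 2855, the kinase subunit Camk2b gave 2408, 3023 and 2799, and the coactivator Crtc1 passed on set B (3849.8, 4531 and 3402). Camk4, the nuclear kinase for CREB, gave 164, 193 and 274, and Creb1 itself 100.1, 89.3 and 145, both above the control level alone, with the Creb1 call lost without array 1 or without array 3. Crtc2 did not pass.

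Genes that neuronal activity induces were at graded levels before stimulation. Of 28 such genes 17 were above the control level (60.7%), against 58.8% of all named genes and 67.5% of set A genes. The chemosensory level, which 43.4% of all named genes exceeded, was passed by 5. Those 5 were Jun (1223, 1138 and 1304), Btg2 (685, 562 and 583), Egr1 (493, 652 and 520.5), Nfil3 (280.2, 467 and 435) and Rgs2 (264, 283 and 278). Fos gave 233, 189 and 311 (1.61 ± 0.18 SE over the control level, adjusted p = 3.6e-05), and Bdnf, the neurotrophin, 318, 93.2 and 276 on 1 of its 2 probe sets (1.39 ± 0.31 SE, adjusted p = 0.00227). Both passed against the control level and neither against the chemosensory one, although Fos lay over that level on all 3 arrays. Arc, a regulator of AMPA receptor endocytosis, gave 31.1, 24.2 and 26.7, under the control level on all 3 arrays. Junb, Fosb, Egr4, Atf3 and Ptgs2 did not pass, and Npas4 on set B gave -567, 31.9 and 141 and did not pass. Nr4a3 did not pass on set A (53.2, 56.5 and 50.6) and gave 6825, 6083 and 5876 on set B.

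Secreted peptides and their processing genes passed in 19 of 23 cases, beside 58.8% of all named genes. The processing enzyme Cpe gave 15700.4, 13756 and 12414, and the granin Scg3 gave 4999.5, 5939 and 5031. Cortistatin (Cort) gave 466, 729 and 1057, highest on array 3. Crh, Nts and Pdyn did not pass. Of 18 neurotrophins and growth factors 11 passed, near the 58.8% of all named genes and below the 67.5% of set A genes. Pleiotrophin (Ptn) gave 4253, 3877 and 3949.9. Gdnf was at 11.1, 11.9 and 11.3. Of 12 long noncoding RNAs 9 passed, including the maternally expressed Meg3 (2485, 4643 and 3019) and, on set B, Miat. Imprinted genes passed in 15 of 19 cases, with Gnas and Ndn beside Nnat.

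The 3 arrays disagreed strongly at a small number of probe sets above background. On set A, a probe set of Phgdh, an enzyme of serine synthesis, gave 3713, 179.8 and 239, although the other 3 probe sets of the gene varied by 0.42 log2 units at most. Prdx2 gave 283, 3309 and 2325 on a probe set whose companion varied by 0.08. Capn5 gave 1041, 385 and 41.7. Cp, the ceruloplasmin gene of astrocytes, gave 608, 45.3 and 222. On set B, the 10 most variable probe sets set array 1 apart in every case, such as Tmco2 with 6435, 172 and 404 and Nwd1 with 329, 3000.2 and 2565.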

How the data were processed

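Total RNA was labelled with biotin and hybridised to Affymetrix arrays, per the labels' protocols. The authors deposited 1 linear intensity per probe set, and the values show that each array had been scaled to a trimmed mean near 500. Neither the scanner software nor how probes were summarised is given in the sources used here. On set B, array 1 holds values below 0 and the others none, so the values of that set may not all come from the same summary.

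From the deposited intensities, log2(signal + 16) was formed, with values below 0 set to 0, and each array's control level (95th percentile of 27 Bacillus control probe sets) was subtracted on that scale. Each set was fitted on its own with limma 3.58.1 in R 4.3.3 (lmFit, eBayes with trend), testing upward against 0 with Benjamini-Hochberg adjustment over all its probe sets that are not controls. The error of the control level itself is not part of that test. The fit was tested on simulated data. Tables and figures used Python 3.11.15 and matplotlib 3.10.9.

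Symbols came from the platform annotation. On set A, 20380 probe sets had 1 gene symbol, 691 several and 1555 none, and on set B 14661, 245 and 7605. For each gene the probe set with the highest mean stood for it, from set A where present, otherwise from set B. On set B the means used for this choice, for ranks and for percentiles were taken after quantile normalization of its arrays. On set A they were means of the deposited values. The signals printed for both sets are the deposited ones. In these calls a probe set of the cross-hybridising _x_at type was used only where no other existed. The brightest named genes, the most variable probe sets and the set B results given beside set A calls were not limited in this way and include _x_at probe sets. Percentiles are over the probe sets of a set that are not controls. The number of arrays, 3 per set, limits the precision. The members and all 60 lists were chosen with earlier results of these data known. The rule for named genes took the 20 of highest mean per set, the 10 probe sets above background of highest SD per set, up to 6 members above and 4 not above background per list, any member of receptor or channel families of up to 18 genes, and Fos, Arc, Npas4, Bdnf, Gad1, Gad2, Slc17a7, Slc17a6, Grin2a, Grin2b, Slc12a2, Slc12a5, Cacna1c, Cacna1d, Gfap and Xist. Other genes named were chosen after their values were seen. Of 990 listed symbols, 883 were measured and 107 are not named here. The alternatives tried were other background levels, pseudocounts, quantile normalization before the limma fit, filters, other choices of probe set and leaving out each array.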

Additional observations from a re-analysis of the deposited data

How the results depend on the processing

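No paired analysis was possible because only the 0 h group was described and no groups were contrasted. The counts above background stayed within 1.5 times of their values under every alternative run, with 9429 to 14455 probe sets of set A, 4037 to 6542 of set B and 7877 to 11320 named genes. Leaving out each array in turn gave 13012 to 13771 probe sets on set A, 5227 to 6148 on set B and 10325 to 10539 named genes. Of the 20 brightest named genes, 18 to 20 stayed among the 20 brightest on each set without 1 array. Without 1 array the median SD was 0.16 to 0.2 for set A; for set B it was 0.17 to 0.29, where 0.17 was the value without array 1. Leaving out arrays for the SD, and counting genes by any probe set, were chosen after seeing the data. The list counts moved more: with the chemosensory level 26 of 60 lists fell by over 1.5 times, with the highest Bacillus control 17, with each gene's dimmest probe set 17. The cause of these falls was not tested. Of 529 listed genes above background, 262 kept the call under every alternative, as did 259 of 354 not above it. The kept calls include Cacna1c, and Gabrg1, Scn2a, Kcna1, Kcna4, Kcna6 and Creb1 lost theirs without array 1 or array 3, Trp73 and Gabre without array 2 or array 3, Dpysl2 (set A) and Vip without array 3 and Opalin without array 1. The 15 chemosensory receptor probe sets above background on set A limit what signals below 189 can show.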

Other observations

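Gene families grouped by the start of their symbols, chosen after the values were seen, filled in the resting profile outside the lists. Complex I subunits, which pass electrons into the respiratory chain, were above background for 33 of 34 genes, proteasome subunits for 39 of 42 and eukaryotic initiation factors for 43 of 47. Cytosolic ribosomal protein genes passed in 42 of 48 cases, with a median percentile of 98.1 on set A. Rab GTPases, which direct vesicle traffic, passed in 57 of 72 cases and subunits of the vacuolar proton pump, which acidifies synaptic vesicles and lysosomes, in 16 of 20. Over all named genes the share was 58.8%.

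Among other families, 5 of 36 Hox genes passed, 14 of 35 protocadherins, which are adhesion molecules of the brain, 10 of 44 keratins, 24 of 73 cytochrome P450 genes and 22 of 73 interleukins and their receptors. Above the chemosensory level these counts were 2, 7, 3, 3 and 5, beside 43.4% of all named genes. Kinesins (22 of 37), semaphorins (12 of 20) and zinc finger genes named Zfp (201 of 336) lay near the share of all genes.

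None of the Y-linked genes measured was above background in the test over 3 arrays. Eif2s3y, a Y-linked translation factor gene, gave 232, 3.3 and 1.69 on the 3 arrays of set A (adjusted p = 1.0). Kdm5d gave 123, 42 and 133, Uty 114, 19.7 and 78.8 and Sry 11.9, 4.7 and 6.41. Xist, the RNA that silences an X chromosome, gave 160.2, 295 and 524. Array 1 was the high one for Eif2s3y and Uty and the low one for Xist, while Kdm5d and Uty were lowest on array 2. Other probe sets gave 93.2, 39.0 and 33.2 for Kdm5d and 101, 28.7 and 46.5 for Uty, highest on array 1. A further one for Kdm5d was highest on array 2 (12.1, 53.0 and 10.6). Of the 3 Xist probe sets 1 passed. The labels give no sex for the cultures.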
